A study of Homo sapiens with 9 samples.

Results

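Nucleotide synthesis and one-carbon metabolism were followed through 35 genes in Jurkat Clone E6-1, an established human leukaemic T-cell line, during activation through the T-cell receptor. The genes were chosen by pathway: 2 that make phosphoribosyl pyrophosphate (PRPP), 6 of the de novo purine route to inosine monophosphate (IMP), 3 of the GMP branch, 5 of de novo pyrimidine synthesis, 7 of the folate and methionine cycles, 8 of nucleoside and base salvage and 4 nucleotide kinases. They were matched by symbol to the 19569 genes of the deposited mRNA count table, and all 35 had a row. The 9 libraries form 3 groups of 3, which the study's design text calls biological replicates: non-activated cells (0 h), and cells kept for 5 h or 12 h in plates coated with anti-CD3 at 10 µg/mL with anti-CD28 at 5 µg/mL in the medium. All groups come from the same line and were grown in RPMI with serum. Non-activated cells kept for the same times are not among these libraries, so activation and time in culture cannot be told apart.

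A cell can build purine and pyrimidine nucleotides from amino acids, PRPP and one-carbon units carried by folate, or it can recover bases and nucleosides by salvage. Mitochondrial folate enzymes turn serine into formate, and cytosolic enzymes join formate to tetrahydrofolate for purine and thymidylate synthesis. Stimulated T cells are known for drawing on both de novo synthesis and mitochondrial folate metabolism, and loss of the salvage enzyme adenosine deaminase causes severe combined immunodeficiency.

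Library totals ran between 4222258 and 9359187 counts, both in 12 h libraries. Levels are given as CPM, the count per 1000000 counts of the library after scaling for library composition, with SD over 3 libraries. All 10 T-cell markers in the table were above 1 CPM, and their sum was 6724 to 7738 CPM at 0 h, 7755 to 8704 CPM at 5 h and 7441 to 8552 CPM at 12 h. Summed myeloid markers stayed at or under 3.01 CPM, epithelial markers at or under 4.89 CPM and fibroblast markers at or under 3.24 CPM in every library. The B-cell list reached 203 CPM, nearly all from CD79A, while MS4A1 and PAX5 were close to 0. Exons of SHMT1, SHMT2, MTHFD1, ADA, UCK1 and UCK2 overlap a gene on the other strand by 6 to 225 bases, and GART, MTHFD2, DCK, NME1 and NME2 overlap one as described with them. In a bulk library, fewer cells expressing a gene and less RNA per cell cannot be told apart.

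The clearest movement was in salvage, where 6 of 8 genes were lower at both times and none was higher at 5 h, and in the folate cycle, where the mitochondrial enzymes SHMT2, MTHFD2 and MTHFD1L rose while the cytosolic SHMT1 and MTHFD1 fell. Against 0 h, the de novo routes did not move as blocks. A gene was called when its adjusted p was under 0.05 in edgeR's quasi-likelihood test over 12036 genes, and 34 of the 35 members could be tested. At 5 h, 7 members were higher than at 0 h, which is 20.6% of those tested beside 24.9% of all genes, and 10 were lower, which is 29.4% beside 24.8%. At 12 h, 9 were higher than at 0 h (26.5%, beside 26.3% of all genes) and 17 were lower (50%, beside 24.8%). The members' median log2 fold change was -0.01 at 5 h and -0.21 at 12 h, while that of all genes tested was 0.00 at both times. Only the lower calls at 12 h stood well away from the background share. The background was not matched to the members in level: it includes genes with few counts, while every tested member had at least 1623. The members were also chosen with earlier results of these data known.

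**Figure D1:**
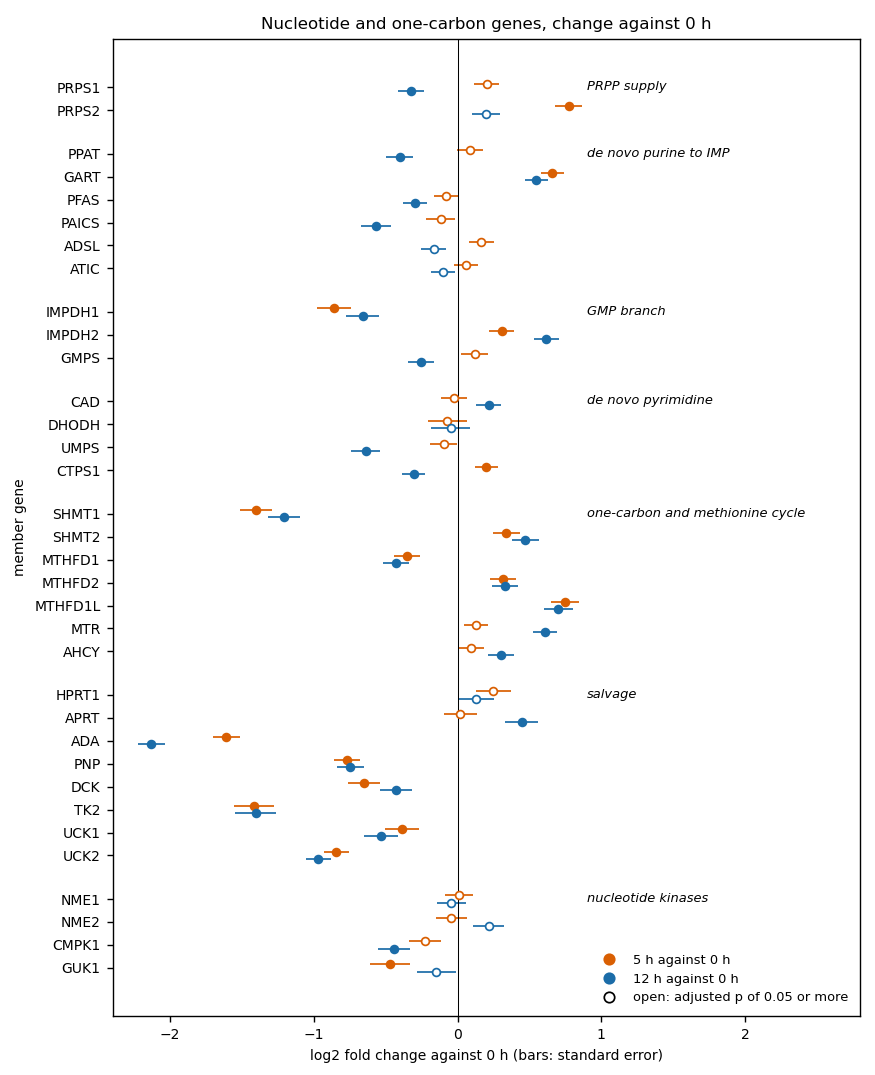
Log2 fold change of each of the 34 tested members at 5 h (orange) and 12 h (blue) against 0 h, with bars for the standard error and open circles where the adjusted p was 0.05 or more. ADA, TK2, SHMT1, UCK2, IMPDH1 and PNP lie on the negative side at both times, while GART, MTHFD1L, SHMT2, MTHFD2 and IMPDH2 lie on the positive side at both.

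The members fell into a few time courses. GART, IMPDH2, SHMT2, MTHFD2 and MTHFD1L were called higher at both times, and CAD, MTR, AHCY and APRT at 12 h alone. IMPDH1, SHMT1, MTHFD1, ADA, PNP, DCK, TK2, UCK1 and UCK2 were called lower at both times. PRPS1, PPAT, PFAS, PAICS, GMPS, UMPS and CMPK1 passed the test as lower at 12 h alone, and GUK1 at 5 h alone. PRPS2 was higher at 5 h without a call at 12 h. CTPS1 was the one member called in opposite directions, higher at 5 h and lower at 12 h. ADSL, ATIC, DHODH, HPRT1, NME1 and NME2 passed the test at neither time.

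PRPP, the ribose donor of both de novo routes and of base salvage, is made by PRPS1 and PRPS2. PRPS2 (chromosome X, 12791355 to 12824222, GRCh38) was at 84.1, 77.9 and 72.7 CPM in the 0 h libraries, 138, 128 and 135 CPM at 5 h, and 83.7, 83.8 and 101 CPM at 12 h. The 5 h libraries stood above all others, and the 12 h libraries overlapped those of 0 h. The 5 h value was 1.71-fold that of 0 h (log2 0.77 ± 0.10 SE, adjusted p = 1.07e-06), and the 12 h value was not called against 0 h (log2 0.20, adjusted p = 0.0985). PRPS1 was at 76.6, 79.5 and 70.9 CPM at 0 h, 87.7, 86.1 and 87.3 CPM at 5 h, and 62.2, 61.1 and 58.3 CPM at 12 h. Its 3 groups did not overlap, yet the 5 h difference missed the threshold (log2 0.20 ± 0.09, adjusted p = 0.0599). At 12 h PRPS1 was lower than at 0 h (log2 -0.32 ± 0.09, adjusted p = 0.00517).

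In the 6 genes of the purine route to IMP, 1 was higher and none lower at 5 h, and at 12 h 1 was higher and 3 lower. The higher share was 16.7% at each time, beside 24.9% of all genes at 5 h and 26.3% at 12 h. The lower share at 12 h was 50%, beside 24.8%. GART, a trifunctional enzyme that includes a formyl-folate-dependent step, was the riser. It was at 157, 146 and 146 CPM at 0 h, 247, 231 and 232 CPM at 5 h, and 218, 221 and 218 CPM at 12 h. Both activated groups lay wholly above 0 h, 1.58-fold at 5 h (log2 0.66 ± 0.08, adjusted p = 1.10e-06) and 1.46-fold at 12 h (log2 0.55 ± 0.08, adjusted p = 1.24e-05). GART lies on chromosome 21 (33503931 to 33543491), and 275 bases of its exons overlap SON on the other strand.

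PPAT, which catalyses the committed step of the route, was at 92.4, 91.3 and 82.2 CPM at 0 h, 100.3, 87.8 and 94.6 CPM at 5 h, and 72.2, 63.6 and 66.3 CPM at 12 h. The 0 h and 5 h libraries overlapped and the 12 h libraries lay below both. PPAT was not called at 5 h (log2 0.09, adjusted p = 0.446) and was lower at 12 h than at 0 h (log2 -0.40 ± 0.09, adjusted p = 0.00134). PAICS, whose bifunctional product carries out the carboxylation and the succinocarboxamide steps, was likewise lowest at 12 h. Its level was 498, 480.0 and 426 CPM at 0 h, 466, 407 and 421 CPM at 5 h, and 324, 269 and 354 CPM at 12 h. The 12 h libraries again lay below all others (log2 -0.57 ± 0.10 against 0 h, adjusted p = 1.06e-04), with no call at 5 h (log2 -0.12, adjusted p = 0.361). PFAS, the amidotransferase between GART's reactions, averaged 116 ± 2.12 CPM at 0 h, 110 ± 3.70 CPM at 5 h and 94.5 ± 4.65 CPM at 12 h, and only the 12 h value was called (log2 -0.30, adjusted p = 0.00569). ADSL and ATIC, which act last on the way to IMP, averaged 113 ± 9.43 and 186 ± 11.8 CPM at 12 h beside 127 ± 7.27 and 199.6 ± 7.37 CPM at 0 h. Neither was called against 0 h at either time.

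PPAT and PAICS are neighbours on chromosome 4, transcribed away from each other with starts 126 bases apart in the GENCODE annotation. Motif distances below are counted from RefSeq starts, which can differ from those of GENCODE. The E-box CACGTG, the motif of MYC and related factors, was searched in RefSeq promoter windows of 300 bases (250 before to 50 after each start, GRCh38.p14). The motif reads the same on both strands. Of the 32 members with a window, 8 held it (25%), beside 8.77% of 27305 genes. PPAT and PAICS both count among the 8 though they share 1 site. The 27305 genes are all those with a window and were not limited to genes expressed in these cells. The difference was not tested. The sites shown are the one that PPAT and PAICS share, written on each gene's strand, and those of MTHFD1 and MTHFD1L, which moved in opposite directions. Capitals mark the motif.
PPAT: aacggagatttcCACGTGcagcaaatacag
PAICS: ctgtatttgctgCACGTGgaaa
MTHFD1: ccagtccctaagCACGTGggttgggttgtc
MTHFD1L: cacgcccggctcCACGTGcgcagccggccg
The PPAT stretch lies at chr4:56435780-56435809 on the minus strand, with the motif beginning 182 bases before that gene's start. The PAICS stretch covers chr4:56435780-56435801 on the plus strand, with the same motif 40 bases after the start. In MTHFD1 (chr14:64388326-64388355, plus strand) the motif begins 15 bases before the start. In MTHFD1L (chr6:150866320-150866349, plus strand) the motif begins 1 base before the start and so runs across it. The MTHFD1L site lay in 3 windows, and the distance is from the nearest start. The other members that held the motif were ATIC, DCK, DHODH and NME1. Of the 8 members with the motif, 1 was higher and 2 were lower at 5 h, and 1 was higher and 4 were lower at 12 h than at 0 h. The shares at 5 h were 12.5% and 25%, beside 24.9% and 24.8% of all genes. At 12 h they were 12.5% and 50%, beside 26.3% and 24.8% of all genes. Among all members tested, 50% were lower at 12 h. Whether the motif bears on these changes was not tested. MYC itself was at 222, 212 and 200.2 CPM at 0 h, 280.3, 261 and 287 CPM at 5 h, and 82.2, 94.4 and 94.3 CPM at 12 h, and its part in these values was not tested.

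IMP goes on to GMP through IMP dehydrogenase, the controlled step, and GMP synthetase. The 2 dehydrogenase genes moved apart. IMPDH2, the form known to dominate in dividing lymphocytes, was at 166, 162 and 149 CPM at 0 h, 182, 203 and 204 CPM at 5 h, and 223, 253 and 253 CPM at 12 h. Each group lay above the one before it, with log2 changes against 0 h of 0.31 ± 0.09 at 5 h (adjusted p = 0.00691) and 0.62 ± 0.09 at 12 h (adjusted p = 7.55e-06). IMPDH1 was at 41.8, 40.4 and 38.9 CPM at 0 h, 22.0, 23.0 and 21.8 CPM at 5 h, and 21.7, 27.4 and 26.5 CPM at 12 h. Every activated library was below every 0 h library (log2 -0.86 ± 0.12 at 5 h, adjusted p = 4.04e-06, and -0.66 ± 0.12 at 12 h, adjusted p = 8.17e-05). GMPS averaged 187 ± 13.5 CPM at 0 h, 203 ± 19.0 CPM at 5 h and 157 ± 10.1 CPM at 12 h. Its lower call at 12 h (log2 -0.25, adjusted p = 0.0274) was lost when 0 h replicate 1 or 2 or 12 h replicate 2 or 3 was left out, with log2 values of -0.24 to -0.21.

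Of the 4 pyrimidine genes tested, 1 was higher at 5 h, and at 12 h 1 was higher and 2 were lower than at 0 h. The higher share was 25% at each time, close to the 24.9% of all genes at 5 h and 26.3% at 12 h. The lower share at 12 h was 50%, beside 24.8%. CAD, the trifunctional enzyme that starts the route, was at 224, 229 and 246 CPM at 0 h, 234, 221 and 232 CPM at 5 h, and 289.9, 279.7 and 243 CPM at 12 h. The 12 h libraries overlapped those of 0 h, and the 12 h call was close to the threshold (log2 0.22 ± 0.09, adjusted p = 0.0465). Leaving out 0 h replicate 1 or 2 or 12 h replicate 1 or 2 ended that call (log2 0.16 to 0.21). UMPS, which makes UMP from orotate, was at 62.5, 67.7 and 69.9 CPM at 0 h, 65.4, 59.3 and 62.5 CPM at 5 h, and 46.1, 40.6 and 42.5 CPM at 12 h. Its 12 h libraries lay below all others (log2 -0.64 ± 0.10 against 0 h, adjusted p = 1.94e-05). DHODH, the mitochondrial enzyme between them, averaged 26.1 ± 3.59 CPM at 0 h, 24.9 ± 2.94 CPM at 5 h and 25.1 ± 2.95 CPM at 12 h and was never called.

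CTP synthase makes the last nucleotide of the route, and CTPS1 is the form that proliferating lymphocytes are known to need. CTPS1 (chromosome 1, 40979335 to 41012565) was at 215, 209.7 and 216 CPM at 0 h, 252, 235 and 249 CPM at 5 h, and 166, 174 and 177 CPM at 12 h. The 3 groups did not overlap, with 5 h highest and 12 h lowest. The 12 h fall was called (log2 -0.31 ± 0.08, adjusted p = 0.00361). The 5 h rise was small (log2 0.20 ± 0.08, adjusted p = 0.0425), and its call was lost on leaving out any 1 of the 0 h or 5 h libraries (log2 0.18 to 0.22). CTPS2, its X-linked counterpart, had 0 counts in all 9 libraries. With 3 counts over all libraries as the limit a count of 0 allows, CTPS2 could be present at up to 0.0475 CPM, and it was not tested. That limit covers counting error only.

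Of the 7 folate and methionine-cycle genes, at 5 h 3 were higher and 2 lower than at 0 h, and at 12 h 5 were higher and 2 lower. The higher shares were 42.9% at 5 h and 71.4% at 12 h, beside 24.9% and 26.3% of all genes. The lower share was 28.6% at each time, near the 24.8% of all genes. SHMT2, the mitochondrial serine hydroxymethyltransferase, was at 129, 123 and 137 CPM at 0 h, 152, 164 and 177 CPM at 5 h, and 157, 189 and 192 CPM at 12 h. MTHFD2, the mitochondrial dehydrogenase and cyclohydrolase that follows it, was at 158, 139.9 and 130.0 CPM at 0 h, 189, 169.9 and 173 CPM at 5 h, and 177, 173 and 188 CPM at 12 h. MTHFD1L, which releases formate in the mitochondrion, was at 63.5, 58.3 and 52.9 CPM at 0 h, 102, 88.7 and 103 CPM at 5 h, and 87.1, 99.99 and 95.7 CPM at 12 h. For all 3 genes, every activated library exceeded every 0 h library, while 5 h and 12 h overlapped.

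MTHFD1L changed most of these, 1.68-fold at 5 h (log2 0.75 ± 0.10, adjusted p = 2.88e-06) and 1.62-fold at 12 h (log2 0.70 ± 0.10, adjusted p = 7.16e-06). SHMT2 rose by log2 0.34 ± 0.09 at 5 h (adjusted p = 0.00541) and 0.47 ± 0.09 at 12 h (adjusted p = 3.18e-04). MTHFD2 rose by log2 0.31 ± 0.09 at 5 h (adjusted p = 0.00696) and 0.33 ± 0.09 at 12 h (adjusted p = 0.00464), and without 0 h replicate 3 the 5 h value was 0.25 with an adjusted p of 0.0502. MTHFD2 shares 1324 of its 4870 exon bases with SLC4A5 on the other strand, and whether the counting used strand is not given in the sources used here.

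SHMT1, the cytosolic serine hydroxymethyltransferase, was at 56.9, 55.8 and 52.2 CPM at 0 h, 19.8, 21.9 and 20.5 CPM at 5 h, and 23.7, 23.0 and 24.7 CPM at 12 h. The activated libraries lay far below 0 h, 0.378-fold at 5 h (log2 -1.40 ± 0.11, adjusted p = 1.29e-09) and 0.433-fold at 12 h (log2 -1.21 ± 0.11, adjusted p = 1.37e-08). MTHFD1, the trifunctional cytosolic enzyme, averaged 293 ± 29.2 CPM at 0 h, 229.6 ± 10.0 CPM at 5 h and 217 ± 14.4 CPM at 12 h. It was called lower at both times (log2 -0.35, adjusted p = 0.00317, and log2 -0.43, adjusted p = 5.71e-04). MTR, the methionine synthase that returns methyl-folate to the cycle, was at 193, 194 and 184 CPM at 0 h, 214, 203 and 207 CPM at 5 h, and 296, 276 and 299.6 CPM at 12 h. The 12 h libraries lay well above the rest (log2 0.61 ± 0.08 against 0 h, adjusted p = 3.18e-06), and the 5 h difference was not called (log2 0.13, adjusted p = 0.202). AHCY, which clears S-adenosylhomocysteine, averaged 98.9 ± 5.04 CPM at 0 h, 106 ± 7.24 CPM at 5 h and 121 ± 9.46 CPM at 12 h, higher at 12 h alone (log2 0.30, adjusted p = 0.00921).

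**Figure D2:**
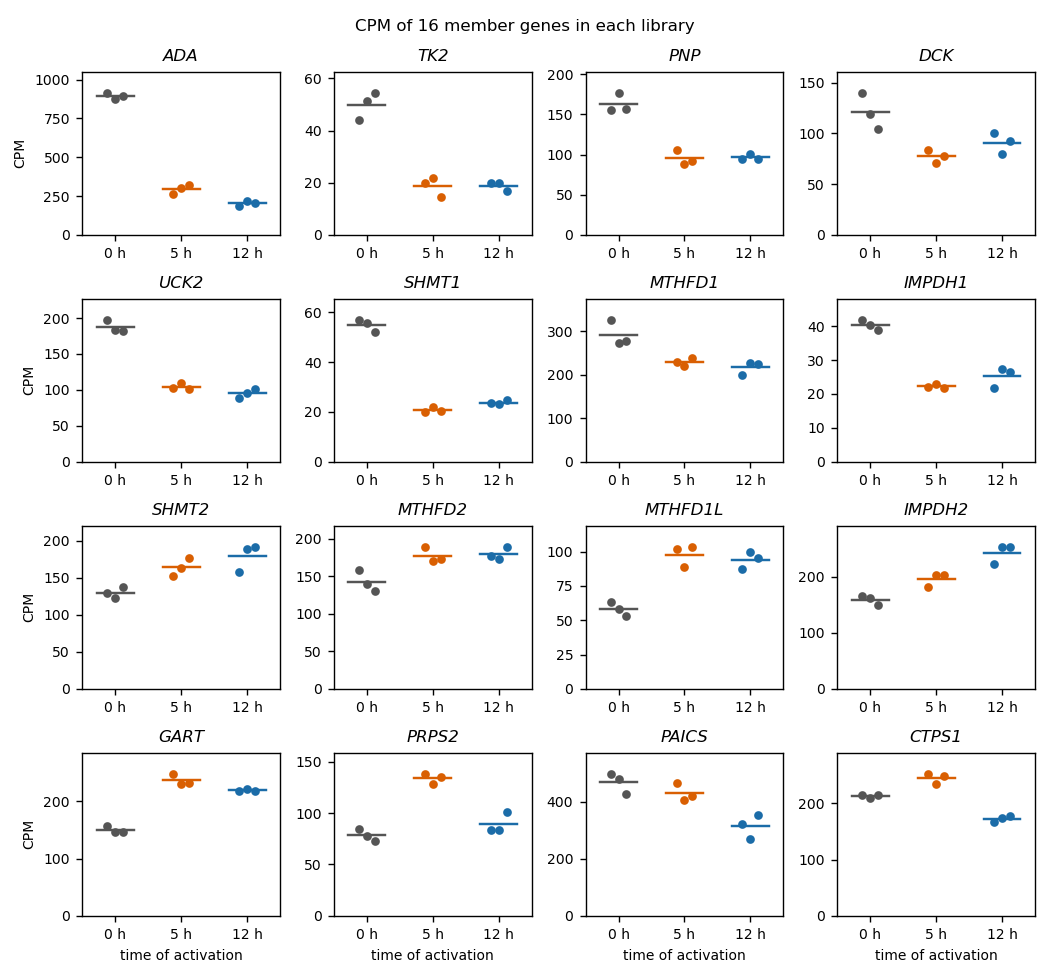
CPM of 16 members in each library (points) at 0 h, 5 h and 12 h of activation, with the group mean as a line and each axis starting at 0. ADA, TK2, PNP, DCK, UCK2, SHMT1, MTHFD1 and IMPDH1 have every activated library below every 0 h library, and PRPS2 peaks at 5 h.

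Of the 8 salvage genes, the same 6 fell at 5 h and at 12 h: ADA, PNP, DCK, TK2, UCK1 and UCK2. These 6 are 75%, beside 24.8% of all genes lower at each time. ADA, which deaminates adenosine and deoxyadenosine, was the most abundant member at 0 h, at 313.9 ± 6.73 CPM per kilobase of exon, and fell most. ADA (chromosome 20, 44619522 to 44652233) was at 914, 876 and 895 CPM at 0 h, 262, 300.0 and 319 CPM at 5 h, and 189, 216 and 207 CPM at 12 h. No group overlapped another, and each later group was lower. The level was 0.328-fold that of 0 h at 5 h (log2 -1.61 ± 0.09, adjusted p = 8.36e-12) and 0.228-fold at 12 h (log2 -2.13 ± 0.09, adjusted p = 1.68e-13). ADA made up 17.2% of the members' summed CPM at 0 h, 6.42% at 5 h and 4.78% at 12 h.

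PNP, the purine nucleoside phosphorylase that acts after ADA, was at 155, 177 and 157 CPM at 0 h, 106, 88.7 and 92.3 CPM at 5 h, and 94.7, 101 and 95.1 CPM at 12 h. Both activated groups lay below 0 h and overlapped each other (log2 -0.77 ± 0.09 at 5 h, adjusted p = 7.43e-07, and -0.75 ± 0.09 at 12 h, adjusted p = 1.24e-06). TK2, the mitochondrial thymidine kinase, was at 43.9, 51.3 and 54.4 CPM at 0 h, 19.7, 21.6 and 14.4 CPM at 5 h, and 19.8, 19.8 and 16.9 CPM at 12 h. It had fallen by 5 h (log2 -1.42 ± 0.14, adjusted p = 4.73e-08) and was as low at 12 h (log2 -1.41 ± 0.14, adjusted p = 6.79e-08). DCK, the cytosolic deoxycytidine kinase, was at 140.0, 119.6 and 104 CPM at 0 h, 83.6, 71.2 and 77.4 CPM at 5 h, and 100.1, 79.8 and 92.4 CPM at 12 h. Its activated libraries stayed below 0 h (log2 -0.65 ± 0.11, adjusted p = 6.50e-05, and -0.43 ± 0.11, adjusted p = 0.00310), and 199 bases of its exons are shared with MOB1B on the same strand.

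The uridine-cytidine kinases both fell. UCK2, the more active form, was at 197, 184 and 182 CPM at 0 h, 103, 110.0 and 101 CPM at 5 h, and 89.3, 95.8 and 102 CPM at 12 h. UCK1 was at 37.7, 38.7 and 42.3 CPM at 0 h, 27.4, 31.5 and 32.0 CPM at 5 h, and 24.9, 30.3 and 26.2 CPM at 12 h. In both genes the activated libraries lay below 0 h and overlapped each other. UCK2 changed by log2 -0.84 ± 0.09 at 5 h (adjusted p = 6.85e-08) and -0.97 ± 0.09 at 12 h (adjusted p = 1.16e-08), and UCK1 by -0.39 ± 0.12 (adjusted p = 0.00903) and -0.53 ± 0.12 (adjusted p = 8.56e-04). The 2 genes that recover bases, not nucleosides, went otherwise. HPRT1, which salvages hypoxanthine and guanine, averaged 54.0 ± 8.76 CPM at 0 h, 64.2 ± 3.94 CPM at 5 h and 58.8 ± 9.37 CPM at 12 h and was not called, though without 0 h replicate 1 it was higher at 5 h (log2 0.38, adjusted p = 0.0175). APRT, which salvages adenine, averaged 45.2 ± 2.09 CPM at 0 h, 45.8 ± 6.17 CPM at 5 h and 61.2 ± 6.93 CPM at 12 h, called higher at 12 h alone (log2 0.45, adjusted p = 0.00271).

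Of the 4 nucleotide kinases, which raise monophosphates and diphosphates towards triphosphates, 1 was lower at 5 h and 1 at 12 h, and none was higher. The lower share was 25% at each time, close to the 24.8% of all genes. CMPK1, the UMP and CMP kinase, averaged 139.9 ± 26.9 CPM at 0 h, 119.7 ± 5.02 CPM at 5 h and 103 ± 8.02 CPM at 12 h, lower at 12 h (log2 -0.44, adjusted p = 0.00263). GUK1, the guanylate kinase, averaged 74.7 ± 4.21 CPM at 0 h, 53.8 ± 7.52 CPM at 5 h and 66.2 ± 16.4 CPM at 12 h, lower at 5 h (log2 -0.47, adjusted p = 0.00774). NME1 and NME2, the nucleoside diphosphate kinases, were called at neither time, with log2 values between -0.04 and 0.22 against 0 h. Without 12 h replicate 1, NME2 was called higher at 12 h (log2 0.34, adjusted p = 0.00338). CMPK1 gained a lower call at 5 h without 0 h replicate 3 (log2 -0.34, adjusted p = 0.0193). NME1 and NME2 share exons with the NME1-NME2 readthrough gene, so how reads were divided between them is uncertain.

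**Figure D3:**
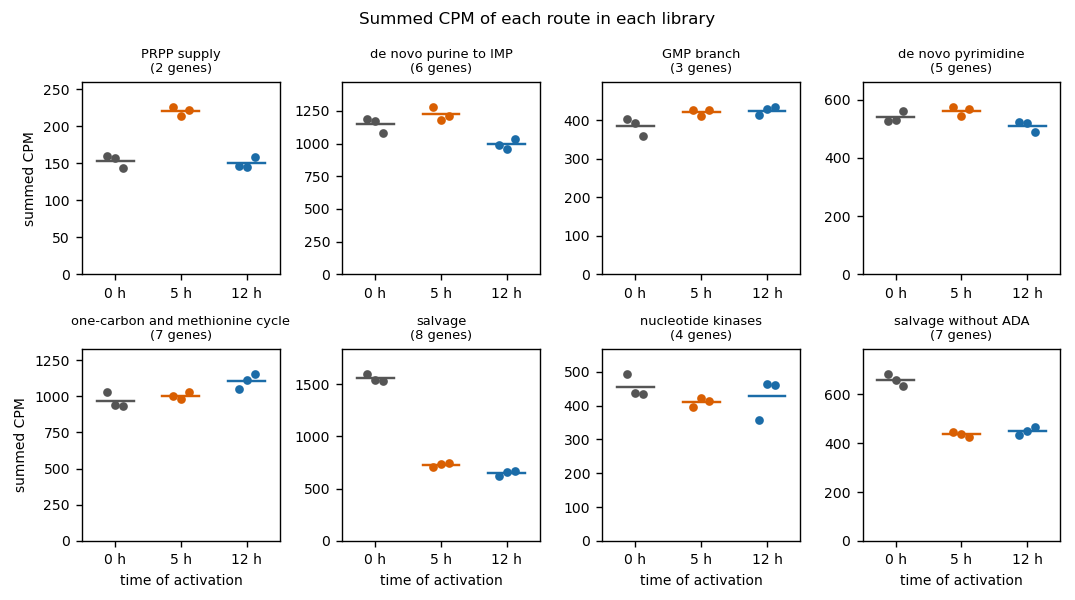
Summed CPM of the members of each route in each library (points), with the group mean as a line and each axis starting at 0, at 0 h, 5 h and 12 h of activation. Salvage is lower in all activated libraries with or without ADA, and PRPP supply is highest at 5 h.

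Summed by route, salvage came to 1556 ± 37.1 CPM at 0 h, 730.1 ± 18.8 CPM at 5 h and 653 ± 26.7 CPM at 12 h. Without ADA the salvage sum was 661 ± 23.7, 437 ± 11.6 and 449 ± 15.6 CPM at 0 h, 5 h and 12 h. The activated groups stayed below 0 h either way. The 6 purine genes summed to 1149 ± 56.0 CPM at 0 h, 1223 ± 48.7 CPM at 5 h and 995 ± 38.5 CPM at 12 h, the last below every other library. The folate and methionine genes summed to 967 ± 55.6 CPM at 0 h, 1003 ± 25.3 CPM at 5 h and 1106 ± 51.0 CPM at 12 h. A sum weighs its most abundant transcripts most, and these carry no test.

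Because scaling cancels within a library, ratios between partner enzymes were compared library by library for 7 pairs in 3 comparisons, 21 tests in all. With 3 against 3 libraries the exact two-sided permutation test cannot go below p = 0.1, which becomes 0.15 after adjustment, so no ratio could pass. The SHMT2 to SHMT1 count ratio was 7.67, 7.47 and 8.63 at 5 h and 6.65, 8.21 and 7.75 at 12 h, against 2.27, 2.20 and 2.63 at 0 h. No activated library overlapped a 0 h library, and the mean log2 ratio differed from 0 h by 1.74 at 5 h and 1.67 at 12 h. The IMPDH2 to IMPDH1 ratio was 8.29, 8.85 and 9.36 at 5 h and 10.3, 9.25 and 9.54 at 12 h, against 3.96, 4.01 and 3.83 at 0 h. This is a log2 difference of 1.17 at 5 h and 1.30 at 12 h, again without overlap.

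MTHFD1L gained on MTHFD1 by log2 1.10 at 5 h and 1.12 at 12 h, and MTHFD2 gained on MTHFD1 by 0.66 and 0.76. PRPS1 lost ground to PRPS2, by -0.57 at 5 h and -0.51 at 12 h. UCK2 also lost ground to UCK1, by -0.46 and -0.43. In these 4 pairs the groups were separate at both times (exact permutation p = 0.1 in each). NME1 against NME2 overlapped between 5 h and 0 h (log2 difference 0.05, exact permutation p = 0.3). At 12 h its libraries were separate from those of 0 h (-0.26) and of 5 h (-0.31), each with an exact permutation p of 0.1. Between 12 h and 5 h, the 6 pairs other than NME1 and NME2 had differences of -0.07 to 0.13 and overlapping libraries.

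**Figure D4:**
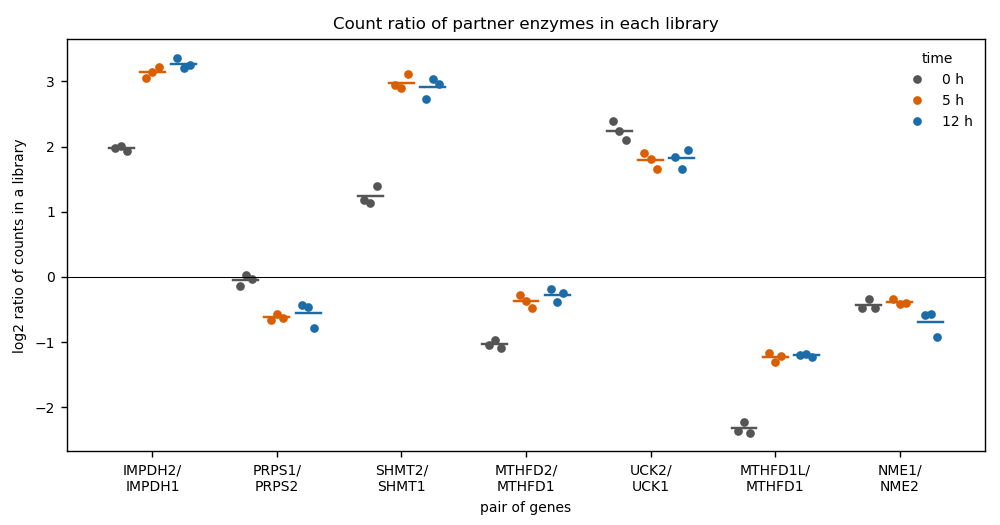
Log2 ratio of counts of partner enzymes in each library (points) at 0 h, 5 h and 12 h, for 7 pairs of genes. IMPDH2/IMPDH1, SHMT2/SHMT1, MTHFD2/MTHFD1 and MTHFD1L/MTHFD1 lie higher in all activated libraries than at 0 h, and PRPS1/PRPS2 and UCK2/UCK1 lie lower.

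Levels of different genes can be set side by side only per length of exon. At 0 h IMPDH2 was at 57.3 ± 3.12 CPM per kilobase and IMPDH1 at 11.0 ± 0.395, SHMT2 at 26.8 ± 1.503 and SHMT1 at 7.55 ± 0.336, and UCK2 at 26.5 ± 1.19 and UCK1 at 14.7 ± 0.903. So the more abundant partner rose in the IMPDH and SHMT pairs, and the more abundant UCK2 fell further than UCK1. PRPS1 at 28.8 ± 1.68 and PRPS2 at 28.4 ± 2.07 CPM per kilobase did not differ beyond their spread at 0 h. At 5 h PRPS2 was at 48.5 ± 1.87 and PRPS1 at 33.2 ± 0.311 CPM per kilobase. After ADA, the highest members at 0 h were PAICS at 62.2 ± 4.97, IMPDH2, NME2 at 52.5 ± 3.96 and ATIC at 50.8 ± 1.88 CPM per kilobase, and neighbours in that order differed by less than the sum of their SDs. The lowest member with counts was DHODH at 3.78 ± 0.519 CPM per kilobase.

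Between the activated groups, 12 h against 5 h, 4 members were higher (11.8%, beside 18.1% of all genes) and 9 were lower (26.5%, beside 18.0%). The lower ones were both PRPP synthetases (PRPS1 log2 -0.52 and PRPS2 -0.58), PPAT (-0.49), PAICS (-0.45), ADSL (-0.33), GMPS (-0.37), UMPS (-0.54), CTPS1 (-0.51) and ADA (-0.52). Higher at 12 h were MTR (0.48), APRT (0.43), IMPDH2 (0.31) and CAD (0.24). All 6 genes of the purine route to IMP had negative log2 values (-0.49 to -0.11). Of these, 3 were called lower (50%, beside 18.0% of all genes). The 3 mitochondrial folate genes had log2 values of -0.05 to 0.13 and no call. Without 5 h replicate 1, 2 members in place of 4 were called higher. Without 12 h replicate 1, NME2 (log2 0.39), GUK1 (0.48) and AHCY (0.26) gained higher calls and PFAS (-0.26) a lower one, and GUK1 also gained its call without 5 h replicate 2 (0.42). The IMPDH2 call ended without 5 h replicate 1 (log2 0.26), and the CAD call ended without any 1 of the 5 h libraries or without 12 h replicate 1 or 2 (log2 0.19 to 0.26).

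A further 85 genes of nucleotide and folate metabolism were listed beside the members, and 72 could be tested. At 5 h 12 were higher (16.7%, beside 24.9% of all genes) and 24 lower (33.3%, beside 24.8%) than at 0 h. At 12 h 14 were higher (19.4%, beside 26.3%) and 21 lower (29.2%, beside 24.8%). Without 0 h replicate 2, 7 were higher at 5 h. The genes listed for deoxynucleotide supply and turnover held no higher call against 0 h. Of 12 tested, 7 were lower at 5 h (58.3%) and 8 at 12 h (66.7%), beside 24.8% of all genes at each time. Among them RRM2, the regulated subunit of ribonucleotide reductase, was at 209 ± 1.19 CPM at 5 h and 159.7 ± 11.6 CPM at 12 h, against 396 ± 16.2 CPM at 0 h (log2 -0.92, adjusted p = 1.47e-08, and log2 -1.31, adjusted p = 1.08e-10). TYMS, thymidylate synthase, fell by 0.53 on the log2 scale at 5 h (adjusted p = 3.40e-05) and by 1.07 at 12 h (adjusted p = 3.20e-09). TK1, the cytosolic thymidine kinase, fell by 0.97 (adjusted p = 3.47e-05) and by 1.27 (adjusted p = 1.92e-06). TYMS overlaps ENOSF1 on the other strand.

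Outside that group the changes went both ways. NT5E, the ectonucleotidase CD73 that makes extracellular adenosine, was at 5.88, 6.73 and 8.42 CPM at 0 h, 58.5, 56.8 and 54.5 CPM at 5 h, and 55.6, 47.0 and 44.1 CPM at 12 h. It thus rose 8.03-fold at 5 h (adjusted p = 3.69e-13) and 6.89-fold at 12 h (adjusted p = 2.87e-12), while ADA, which consumes adenosine, fell. Adenosine was not measured, and whether these changes bear on its level was not tested. GLDC, the decarboxylase of the mitochondrial glycine cleavage system, was at 19.4, 19.6 and 20.1 CPM at 0 h, 78.5, 77.4 and 74.9 CPM at 5 h, and 56.9, 56.9 and 61.3 CPM at 12 h. It was 3.90-fold higher at 5 h (adjusted p = 1.49e-12) and 2.96-fold higher at 12 h (adjusted p = 1.26e-10).

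Of the other genes that met the naming rule, 3 were called lower at both times. CMPK2, a mitochondrial nucleotide kinase, averaged 14.5 ± 0.932 CPM at 5 h and 14.4 ± 1.36 CPM at 12 h, against 42.0 ± 1.36 CPM at 0 h (log2 -1.53, adjusted p = 2.19e-09, and -1.55, adjusted p = 2.45e-09). NT5M, a mitochondrial deoxynucleotidase, averaged 2.96 ± 0.602 CPM at 5 h and 4.12 ± 0.474 CPM at 12 h, against 9.29 ± 1.85 CPM at 0 h, called lower at both times. AMPD3, an AMP deaminase, dipped at 5 h to 10.2 ± 1.77 CPM (log2 -1.57, adjusted p = 2.43e-08) and stood at 22.4 ± 2.69 CPM at 12 h, against 30.3 ± 1.996 CPM at 0 h. Its 12 h call (log2 -0.42, adjusted p = 0.0127) was lost without 0 h replicate 2 (log2 -0.38) or 12 h replicate 3 (log2 -0.33).

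Of the 4 nucleoside transporters, 2 were higher and 1 was lower at each time. The higher share was 50%, beside 24.9% of all genes at 5 h and 26.3% at 12 h, and the lower share 25%, beside 24.8%. The lower one, SLC29A1, was named after its values were seen. It was at 156, 169 and 183 CPM at 0 h, 137, 133 and 131 CPM at 5 h, and 129, 102 and 93.0 CPM at 12 h, and no group overlapped another (log2 -0.34 ± 0.10 at 5 h, adjusted p = 0.00969, and -0.66 ± 0.11 at 12 h, adjusted p = 2.67e-05). The 5 h call was lost without 0 h replicate 3 (log2 -0.28, adjusted p = 0.0564). SLC28A3 had 0 counts at 0 h and averaged 1.05 ± 0.443 CPM at 5 h and 2.57 ± 0.528 CPM at 12 h. Set against 3 counts over the 0 h group, it was at least 7.94-fold higher at 5 h and at least 19.4-fold higher at 12 h. SLC29A2, an equilibrative transporter, averaged 8.38 ± 0.241 CPM at 5 h and 11.3 ± 2.58 CPM at 12 h, against 5.43 ± 0.912 CPM at 0 h (log2 0.63, adjusted p = 0.0198, and 1.05, adjusted p = 3.15e-04), and the 5 h call was lost without 0 h replicate 1 (log2 0.60) or 3 (log2 0.53). The proton-coupled folate transporter SLC46A1 was at most 4.73 CPM in any library, and its 12 h call (log2 -1.46, adjusted p = 0.0496) was lost in most alternatives.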

How the data were processed

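Messenger RNA was measured in 9 Jurkat libraries. The values used are counts per gene as the authors deposited them, and a deposited table of log2 values of the same counts divided by a factor per library, plus 1, served as an alternative. The submitters' processing notes name cutadapt, RSEM, DESeq2 and GRCh38.p13. No source used here gives the aligner, the annotation or the strand setting. Gene positions come from the GENCODE annotation of GRCh38, and exons of 11 of the 35 members overlap another gene.

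Counts were scaled by TMM, filtered with filterByExpr and fitted in edgeR 4.0.16 (quasi-likelihood) over all 9 libraries. Benjamini-Hochberg adjustment ran over 12036 genes, and a gene was called at an adjusted p under 0.05. The edgeR fit was tested on simulated counts, and the permutation formula on made-up values. Alternatives were RLE scaling, DESeq2 1.42.0, limma 3.58.1 on the log2 values, no filter, only the groups compared, a replicate block, and leaving out each library. The labels give no batch or day, and p-values measure the spread between libraries, which may be partly technical. Members and lists were chosen with earlier results of these data known. Values in every library are given for members called with a log2 change of at least 0.5 in any comparison, and for PPAT, CAD, IMPDH2, CTPS1, PRPS1, PRPS2, MTHFD2 and SHMT2. The further genes named were called with a log2 change of at least 1 against 0 h, some that met this rule are not reported here, and MYC was chosen after its values were seen.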

Additional observations from a re-analysis of the deposited data

Results flagged for a closer look

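For 13 members the effect against 0 h differed between the times, judged by the direct test of 12 h against 5 h. Both effects were taken against the same 0 h libraries. The log2 differences were -0.52 for PRPS1, -0.58 for PRPS2, -0.49 for PPAT, -0.45 for PAICS, -0.33 for ADSL, -0.37 for GMPS, -0.54 for UMPS, -0.51 for CTPS1 and -0.52 for ADA. They were 0.31 for IMPDH2, 0.24 for CAD, 0.48 for MTR and 0.43 for APRT. CTPS1 was called in opposite directions at the 2 times.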

How the results depend on the processing

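With RLE scaling, DESeq2 and limma, all 17, 26 and 13 member calls at 5 h against 0 h, 12 h against 0 h and 12 h against 5 h were kept. No called member changed sign under any alternative run. Leaving out 1 library gave 2 to 6 members called higher between 12 h and 5 h (4 with all libraries, and 2 without 5 h replicate 1), 7 to 11 further genes called higher at 5 h against 0 h (12 with all, and 7 without 0 h replicate 2) and 7 to 11 between 12 h and 5 h (11 with all, and 7 without 5 h replicate 3). Same-numbered libraries did not deviate together (r of -0.14 to 0.16 over genes), so the numbers were not taken as pairs. With the replicate block, 16, 25 and 13 members were called, and CTPS1 at 5 h (adjusted p = 0.0579), CAD at 12 h against 0 h (adjusted p = 0.0628) and CAD at 12 h against 5 h (adjusted p = 0.0517) were lost. With no filter on low counts, CTPS1 at 5 h (adjusted p = 0.0989) and CAD at 12 h (adjusted p = 0.0693) were lost, and with only the groups compared, CAD at 12 h (adjusted p = 0.0849). Higher calls at 12 h against 5 h were gained by GUK1 with the replicate block (adjusted p = 0.0383). With no filter they were gained by NME2 (adjusted p = 0.0352) and GUK1 (adjusted p = 0.0179). The cause of these losses and gains was not tested. Between 12 h and 5 h, uncalled log2 ratio differences changed sign on leaving out 1 library: PRPS1/PRPS2 ran between -0.0045 and 0.18, SHMT2/SHMT1 between -0.14 and 0.014, UCK2/UCK1 between -0.038 and 0.11, and MTHFD1L/MTHFD1 between -0.012 and 0.058. At 0 h the order of the levels within PRPS1 and PRPS2, and within MTHFD2 and MTHFD1, turned with coding length in place of exon length, and at 5 h and 12 h it did not. CTPS1/CTPS2 could not be computed. The smallest library, a 12 h one, limits the precision of genes at a few CPM.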
